A study of Homo sapiens with 5 samples.

Results

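Aminoacyl-tRNA synthetases attach each amino acid to its transfer RNA, the step that supplies charged tRNAs to the ribosome. Human cells make one set of enzymes for the cytosol and, from separate nuclear genes, another set that is imported into mitochondria, where it serves the few proteins encoded by mitochondrial DNA. Many of the cytosolic genes are known targets of ATF4, the transcription factor of the integrated stress response, which cells make when amino acids run short or unfolded proteins build up in the endoplasmic reticulum. The mitochondrial genes are not usually counted in that program.

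The genes described here are the 38 of 25343 gene rows of the deposited count table whose symbol is 1 letter followed by ARS, with or without a final digit, or is EPRS, FARSA, FARSB or TARSL2. No measured value entered that choice. The 17 symbols of the form ending in ARS2 are called mitochondrial and the other 21 cytosolic. TARSL2 also ends in 2 but encodes a second cytosolic threonyl enzyme, and it stands with the cytosolic genes. GARS and KARS each encode both the cytosolic and the mitochondrial enzyme for their amino acid and are counted once, as cytosolic, while QARS has no mitochondrial counterpart. All 38 genes passed the filter on low counts, and the lowest count of any of them in any library was 36 reads, for TARSL2 in pos replicate 3.

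Expression was measured by sequencing of stranded mRNA libraries in SW620, a human colon carcinoma line, in 2 libraries called pos (replicates 1 and 3) and 3 called neg (replicates 1, 2 and 3). All 5 carry the genotype tet-MUC1shRNA, a short hairpin RNA against the mucin gene MUC1 under tetracycline control. The labels say that cells in RPMI1640 with serum got vehicle or doxycycline, in triplicate cultures, but do not tie either agent to pos or neg, so those names are kept. They do not say whether the line is 1 clone, and no library with a control hairpin was analysed here.

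MUC1 itself had 27 and 13 reads in the pos libraries, against 176, 252 and 218 in the neg libraries. Library totals were 12190025 and 13470767 counts in pos, against 10888704 to 14137678 in neg. The pos pair differed from each other far more than neg pairs did, at a chi-square per degree of freedom of 132 against 5.08 to 18.3, and pos replicate 3 had a TMM scaling factor of 0.705, against 1.01 in pos replicate 1 and 1.09 to 1.14 in neg. Results are therefore given per library, and with each library's trend on transcript length removed where that changes the call of a gene named here. Of 10 colon epithelial markers all had reads and 8 passed the filter, with a summed level of 7910 to 16431 CPM (counts scaled to a common library size by TMM) in pos and 6067 to 7893 CPM in neg, though CDH17 was at most 1.95 CPM. The 5 leukocyte markers summed to 11.7 to 15.8 CPM in pos and 5.63 to 7.17 CPM in neg, with PTPRC and CD3E among those at 0, and the 5 fibroblast markers to 11.1 to 12.9 CPM in pos and 18.3 to 21.0 CPM in neg, with COL1A2 and COL3A1 at 0. Of all these markers CDX2 and LYZ rose and CDH1 and COL1A1 fell (edgeR adjusted p under 0.05). Less the length trend, LYZ and COL1A1 did not pass (adjusted p = 0.0852 and 0.0876) while VIL1 did, as higher (adjusted p = 0.0345). The part of these shifts in the results below was not tested. The libraries are bulk RNA, so fewer cells with a transcript and less of it per cell cannot be told apart.

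The cytosolic transcripts took up a smaller part of the pos libraries than of the neg libraries, at 0.592% and 0.466% of all counts in pos, against 1.02%, 1.02% and 0.997% in neg. The mitochondrial ones overlapped between the groups by this measure, at 0.0771% and 0.0584% in pos, against 0.0687% to 0.0737% in neg. Summed over the 21 cytosolic genes and scaled by TMM, the level was 5840 and 6619 CPM in pos replicates 1 and 3, against 9430, 9035 and 8724 CPM in neg replicates 1, 2 and 3. Summed over the 17 mitochondrial genes it was 761 and 829 CPM in pos, against 662, 655 and 601 CPM in neg. On the TMM scale pos lay wholly below neg in the cytosolic sum and wholly above it in the mitochondrial sum. Within a library the ratio of the sums needs no scaling between libraries. It was 7.68 and 7.98 cytosolic reads per mitochondrial read in pos, against 14.2, 13.8 and 14.5 in neg.

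**Figure D1:**
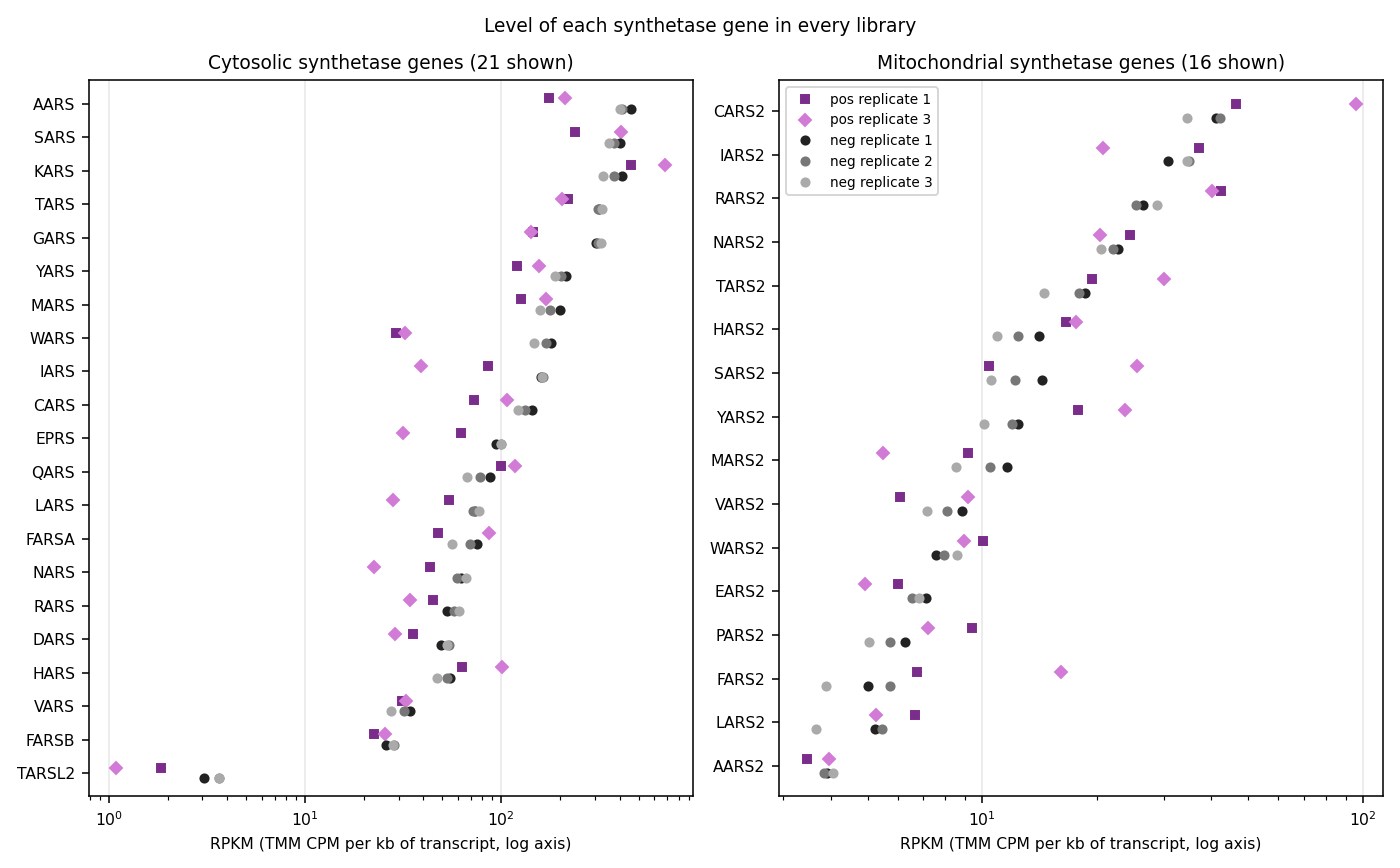
Level of 37 of the 38 synthetase genes in every library, as RPKM (TMM-normalised CPM per kb of the canonical transcript) on a log axis, with cytosolic genes on the left and mitochondrial genes on the right, ordered by their neg mean. Squares and diamonds are the pos libraries and circles the neg libraries; WARS has both pos points at 29.2 and 32.2 RPKM, left of every neg point, and KARS has its pos points to the right.

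Per kb of transcript, the cytosolic genes spanned a wide range and most lay above the mitochondrial ones. In neg libraries the highest were AARS, the alanyl enzyme, at 424 ± 28.5 RPKM (SD, n = 3), SARS, the seryl enzyme, at 378 ± 25.3 and KARS, the lysyl enzyme, at 373 ± 41.0. SARS and KARS did not differ beyond their SD, and AARS stood above both by more than its SD. In pos libraries KARS was first at 460 and 684 RPKM in replicates 1 and 3, while AARS was at 174 and 210. The lowest cytosolic gene was TARSL2, at 1.84 and 1.09 RPKM in pos and 3.44 ± 0.332 in neg. Among mitochondrial genes CARS2, for cysteine, led at 46.3 and 95.7 RPKM in pos and 39.2 ± 4.11 in neg, and AARS2, for alanine, was lowest in neg at 3.93 ± 0.110, with 3.46 and 3.96 in pos.

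Of the 21 cytosolic genes 3 fell in pos and none rose at an adjusted p under 0.05 in edgeR's quasi-likelihood test, with Benjamini-Hochberg adjustment over all 13604 genes tested. Of all those genes 4.13% were called lower, 5.06% higher and 9.2% in either direction. The 3 were WARS, GARS and AARS, the tryptophanyl, glycyl and alanyl enzymes. Of the 17 mitochondrial genes none was called in either direction by edgeR. DESeq2 called 3 of these 17 higher, where it called 13.2% of all genes higher. At an unadjusted p under 0.05, 12 cytosolic genes were lower and 2 higher and 4 mitochondrial genes were higher, where 15.5% of all genes were lower and 19.1% higher. A gene that was not called is not thereby shown to be unchanged. The median log2 fold change was -0.57 over the cytosolic genes and 0.35 over the mitochondrial genes, beside -0.05 over all genes tested. With library size as the only scaling the 3 medians were -0.96, 0.04 and -0.41, so both class medians shifted down with that of all genes. That scaling called 5 cytosolic genes lower, adding CARS and YARS, where 3.37% of all genes were lower and 1.09% higher. Over all genes it called 148 higher and 458 lower, against 689 higher and 562 lower with TMM.

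**Figure D2:**
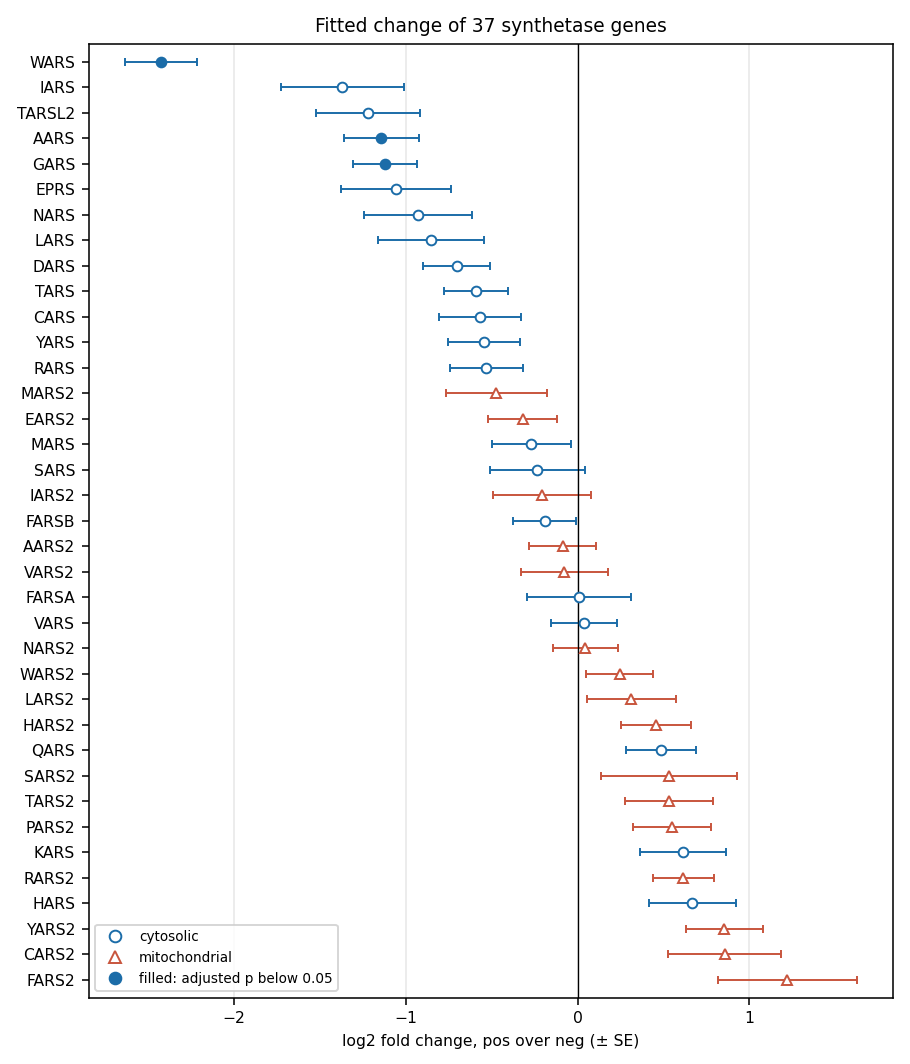
Fitted log2 fold change of 37 of the 38 genes, pos over neg, with its standard error (edgeR, 2 pos and 3 neg libraries); circles are cytosolic and triangles mitochondrial genes. WARS, AARS and GARS are filled because their adjusted p was below 0.05, and the upper rows are nearly all cytosolic while the lower rows are mostly mitochondrial.

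WARS spans bases 100333790 to 100376805 of chromosome 14, minus strand, in GRCh38 (GENCODE 44), with 11 exons in its canonical transcript. It had the lowest fold change of the 38. This enzyme is also known as a gene induced by interferon gamma. It had 77.1 and 84.9 CPM in pos replicates 1 and 3, against 470, 444 and 388 CPM in neg replicates 1, 2 and 3. Both pos libraries lay far below every neg library. The fitted level was 5.36-fold lower in pos (log2 fold change -2.42, SE 0.21, edgeR adjusted p = 0.0261).

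GARS, which charges glycine in both compartments, spans bases 30580533 to 30634033 of chromosome 7, plus strand, with 17 exons. It had 354 and 345 CPM in pos, against 737, 762 and 780 CPM in neg, and the libraries within each group were close to each other. The fall was 2.17-fold (log2 fold change -1.12, SE 0.19, edgeR adjusted p = 0.0373). AARS spans bases 70251983 to 70289707 of chromosome 16, minus strand, with 21 exons. It had 599 and 722 CPM in pos, against 1568, 1415 and 1387 CPM in neg. It was 2.21-fold lower (log2 fold change -1.14, SE 0.22, edgeR adjusted p = 0.0397). AARS made up 10.3% and 10.9% of cytosolic synthetase CPM in pos and 15.7% to 16.6% in neg.

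These 3 calls rest on all 3 neg libraries. Without any one of neg replicates 1, 2 and 3, edgeR called no gene at all. At an unadjusted p under 0.05, 6 or 7 of the 21 cytosolic genes were then lower and none higher. Of all 13420 to 13474 genes tested in these fits, 1125 to 1289 were lower and 1385 to 1744 higher. The adjusted p of WARS was then 0.178, 0.217 and 0.212, at log2 fold changes of -2.36, -2.41 and -2.50. DESeq2 on all 5 libraries called 10 cytosolic genes lower, where it called 10% of all genes lower, and edgeR with the length trend removed also called 10, where 6.66% of all genes were lower and 7.4% higher. Both sets held WARS, GARS, AARS and 5 more, namely IARS, EPRS, DARS, TARS and TARSL2.

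Leaving out a pos library raised the counts over all genes too, and the spread of the single pos library then had to be taken from neg. Without pos replicate 1, edgeR called 11 cytosolic genes lower and 3 higher, where 32.1% of all genes were lower and 30.9% higher, and 2 mitochondrial genes lower and 7 higher. Without pos replicate 3 it called 14 cytosolic genes lower and 4 mitochondrial genes higher, where 17% of all genes were lower and 14.4% higher. With the length trend also removed, it called 14 cytosolic genes lower and 5 higher without pos replicate 1, where 24% of all genes were lower and 27.8% higher. Without pos replicate 3 it then called 16 cytosolic genes lower, where 18.8% of all genes were lower and 17% higher.

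Some of the other cytosolic genes belong to the multisynthetase complex, an assembly of 8 cytosolic enzyme polypeptides and 3 scaffold proteins. IARS, its isoleucyl enzyme, had 385 and 176 CPM in pos, against 711, 733 and 726 CPM in neg (log2 fold change -1.37, SE 0.36, edgeR adjusted p = 0.0632). EPRS, which charges both glutamate and proline, had 303 and 154 CPM in pos, against 456, 482 and 487 CPM in neg (edgeR adjusted p = 0.0810). LARS, the leucyl enzyme, had 257 and 134 CPM in pos, against 349, 343 and 366 CPM in neg (edgeR adjusted p = 0.113). In these 3 genes pos and neg did not overlap, but pos replicate 3 lay well below pos replicate 1, and all 3 have long transcripts of 4483 to 4862 nt.

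The rest of the complex went in no single direction. DARS, for aspartate, had 109.9 and 88.8 CPM in pos, against 153, 167 and 165 CPM in neg, and RARS, for arginine, had 95.5 and 72.4 CPM in pos, against 112, 122 and 129 in neg. MARS, for methionine, overlapped between the groups at 353 and 472 CPM in pos and 439.7 to 558 CPM in neg. KARS had 916 and 1362 CPM in pos, against 823, 748 and 660.0 CPM in neg, and QARS, for glutamine, had 245 and 287 CPM in pos, against 215, 191 and 164 CPM in neg. On the TMM scale the complex therefore held members below and above the neg range in the same libraries. Of the 8 enzyme genes 5 lay wholly below and 2 wholly above, where 29.3% and 26.7% of all tested genes did. With library size as the only scaling KARS was at a log2 fold change of 0.19 and QARS at 0.09. The median of the 8 was then -0.97. None of the 8 passed the threshold in edgeR on all 5 libraries with the length trend left in. An unadjusted p under 0.05 was found for 6, where 34.6% of all genes had one. In that fit the median log2 fold change of the 8 was -0.62, beside -0.57 for the 13 cytosolic genes outside the complex. DESeq2 called 4 of the 8, all lower, where it called 10% of all genes lower. With the length trend removed edgeR called 3, namely IARS, DARS and EPRS, all lower, where 6.66% of all genes were lower. Of the scaffold genes AIMP2 had 23.4 and 40.7 CPM in pos, against 49.0 to 70.2 CPM in neg (log2 fold change -0.93, edgeR adjusted p = 0.0990, or 0.0071 once the length trend was removed). The other scaffold genes, AIMP1 and EEF1E1, were at log2 fold changes of 0.30 and -0.30.

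Outside the complex, TARS, the main threonyl enzyme, had 586 and 543 CPM in pos, against 845, 833 and 874 CPM in neg (log2 fold change -0.59, SE 0.19, edgeR adjusted p = 0.0900). Its paralog TARSL2 had 6.39 and 3.80 CPM in pos, against 10.6, 12.6 and 12.6 CPM in neg (log2 fold change -1.22, SE 0.30, edgeR adjusted p = 0.0562). Reads shared between the 2 sequences could have been split by the authors' counting. YARS, for tyrosine, had 292 and 381 CPM in pos, against 522, 492 and 457 CPM in neg, and CARS, for cysteine, had 198 and 293 CPM in pos, against 393, 362 and 335 in neg. NARS, for asparagine, had 120.1 and 61.9 CPM in pos, against 173, 165 and 182 in neg. All 5 lay below the neg range in both pos libraries without passing edgeR's threshold. With the length trend removed TARS, TARSL2 and YARS passed it (adjusted p = 0.0290, 0.0375 and 0.0224), and CARS and NARS did not.

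HARS was the cytosolic gene with the highest fold change. This histidyl enzyme had 123 and 197 CPM in pos, against 107, 103 and 91.5 CPM in neg (log2 fold change 0.67, SE 0.25, edgeR adjusted p = 0.124). HARS and its mitochondrial neighbour HARS2 lie head to head on chromosome 5 and are close paralogs, so their counts are uncertain. SARS had 454 and 776 CPM in pos, against 774, 718 and 677 CPM in neg, which places the pos libraries on either side of the neg mean. FARSA, 1 of the 2 subunits of the phenylalanyl enzyme, did the same at 86.5 and 157 CPM in pos and 102 to 136 CPM in neg. The other subunit, FARSB, had 152 and 173 CPM in pos and 175 to 193 CPM in neg, and VARS, for valine, had 129 and 134 CPM in pos and 112 to 141 CPM in neg.

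Counted gene by gene, 14 of the 21 cytosolic genes had both pos libraries below every neg library and 3 had both above, namely HARS, KARS and QARS. Over all tested genes 29.3% lay wholly below and 26.7% wholly above. Of the 17 mitochondrial genes 1 lay wholly below, namely EARS2, and 8 wholly above.

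A list of 12 cytosolic genes known as ATF4 targets (AARS, CARS, EPRS, GARS, IARS, LARS, MARS, NARS, SARS, TARS, WARS and YARS) had a log2 fold change below 0 in 12 of 12, with a median of -0.89 and 3 called. Of all tested genes 52% were below 0, and edgeR called 4.13% lower and 5.06% higher. The 9 cytosolic genes outside that list had 4 below 0, a median of 0.01 and none called by edgeR. An unadjusted p under 0.05 was found for 9 of the 12 and 5 of the 9, where 34.6% of all genes had one. DESeq2 called 8 of the 12 and 2 of the 9 lower, where it called 10% of all genes lower. With the length trend removed edgeR also called 8 of the 12 and 2 of the 9 lower, where 6.66% of all genes were lower. The list was written with results on the ATF4 program in these libraries known, so it is no independent evidence of the direction. Less the length trend, the list's median was -0.71 and that of the other 9 was 0.25.

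Of 35 other genes of the ATF4 program, written down without synthetases, 10 fell and none rose (edgeR adjusted p under 0.05), at a median log2 fold change of -0.89, where 4.13% of all genes fell and 5.06% rose. DESeq2 called 20 of them lower, where it called 10% of all genes lower and 13.2% higher. With the length trend removed edgeR called 21 of them lower, where 6.66% of all genes were lower and 7.4% higher. Neither of these fits called one higher. The 4 with the smallest p were SESN2, a stress-induced inhibitor of mTORC1, at -2.04 (SE 0.23), CEBPG, which pairs with ATF4 on DNA, at -1.62 (SE 0.25), STC2, a secreted glycoprotein gene, at -1.78 (SE 0.28), and SLC1A4, a carrier of small neutral amino acids, at -1.13 (SE 0.19). The transcript of ATF4 itself, whose output is set largely by translation, had 780 and 1508 CPM in pos, against 1064, 914 and 843 CPM in neg. The pos libraries lay on both sides of neg (edgeR adjusted p = 0.546). Of 9 tested genes for eIF2alpha kinases, phosphatase subunits and their partners none was called by edgeR and 3 had an unadjusted p under 0.05, near the 34.6% of all genes. DESeq2 called 1 lower, the kinase EIF2AK2, where 10% of all genes were lower. With the length trend removed edgeR also called 1 lower, the phosphatase subunit PPP1R15A, where 6.66% of all genes were lower.

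Some promoters hold the letters that ATF4 and its C/EBP partners are known to bind, the C/EBP-ATF response element. The 250 bases upstream of each RefSeq start (GRCh38.p14) were searched for TGATGNAA on both strands, in the 16 cytosolic and 14 mitochondrial genes that had an entry. The letters were found in 3 cytosolic genes, AARS, GARS and IARS, and in 1 mitochondrial gene, YARS2, against 3.89% of 27305 genes in the same windows. The sites are shown since AARS and GARS were called and IARS had the next lowest fold change after WARS. They are given 5′ to 3′ on the gene's own strand, with the matching letters in capitals:
AARS, chr16:70289675-70289704, minus strand: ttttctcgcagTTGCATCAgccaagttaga
GARS, chr7:30594834-30594863, plus strand: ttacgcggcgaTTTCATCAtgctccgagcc
IARS, chr9:92293698-92293721, minus strand: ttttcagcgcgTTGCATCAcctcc
YARS2, chr12:32756076-32756105, minus strand: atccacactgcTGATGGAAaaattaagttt
All 3 cytosolic matches stand in reverse orientation, and AARS and IARS held the same 8 letters. Read on the other strand those are TGATGCAA, 1 of the 4 forms searched, which 0.967% of all genes hold. No other motif was searched. In GARS the match precedes only 1 of 2 annotated starts. The 3 cytosolic sites, though upstream of a RefSeq start, fall inside the GENCODE spans of their genes, and the YARS2 site falls outside. The windows of WARS held no match to these letters, and YARS2, which held one, lay above the neg range in pos.

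The mitochondrial genes spread around 0 with more above than below, 12 of 17 against 48% of all tested genes above 0. With library size only, 8 of the 17 were below 0. YARS2, the tyrosyl enzyme, had 37.8 and 50.2 CPM in pos, against 26.2, 25.3 and 21.4 CPM in neg (log2 fold change 0.86, SE 0.22, edgeR adjusted p = 0.0619). RARS2, the arginyl enzyme, had 94.8 and 89.8 CPM in pos, against 59.4, 56.7 and 64.7 CPM in neg (log2 fold change 0.62, SE 0.18, edgeR adjusted p = 0.0755). FARS2, the phenylalanyl enzyme, a single chain unlike its cytosolic counterpart, had 11.3 and 27.0 CPM in pos, against 8.39, 9.62 and 6.51 CPM in neg (log2 fold change 1.22, SE 0.40, edgeR adjusted p = 0.0954). These were the 3 that DESeq2 called higher, where it called 13.2% of all genes higher, and none of them passed edgeR with the length trend removed.

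CARS2 had 85.0 and 176 CPM in pos, against 75.4, 77.3 and 63.3 in neg, with pos replicate 1 only just above the neg range. TARS2, PARS2 and HARS2, for threonine, proline and histidine, and WARS2, for tryptophan, were also above the neg range in both pos libraries, at log2 fold changes of 0.53, 0.55, 0.46 and 0.25. EARS2, which charges mitochondrial tRNAs with glutamate, had 31.2 and 25.6 CPM in pos, against 37.1, 34.1 and 35.4 CPM in neg. MARS2, a gene of 1 exon for methionine, had 27.8 and 16.7 CPM in pos, against 25.8 to 35.1 CPM in neg. The remaining 7 overlapped between the groups, SARS2, LARS2, IARS2, AARS2, VARS2 and NARS2 among them, with log2 fold changes between -0.21 and 0.53. In 6 of the 17 mitochondrial genes and 2 of the 21 cytosolic genes pos replicates 1 and 3 lay on opposite sides of the neg mean.

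Mitochondria have no glutaminyl enzyme. EARS2 first loads glutamate onto the glutamine tRNA, and an amidotransferase of 3 subunits converts it. PET112, the older symbol of the subunit gene GATB, rose, with 52.0 and 65.0 CPM in pos against 25.2, 17.5 and 17.04 CPM in neg (log2 fold change 1.55, SE 0.26, edgeR adjusted p = 0.0369). GATC had 86.3 and 83.6 CPM in pos against 60.8, 58.3 and 57.7 CPM in neg, and QRSL1, which encodes the third subunit, had 44.9 and 43.8 CPM in pos against 33.7, 32.5 and 29.8 CPM in neg, neither past edgeR's threshold (adjusted p = 0.0937 and 0.132). Both passed once the length trend was removed, at log2 fold changes of 0.85 for GATC and 0.76 for QRSL1 (adjusted p = 0.0282 and 0.0380). On the TMM scale all 3 lay above the neg range while EARS2 lay below it. Over all tested genes 26.7% lay wholly above and 29.3% wholly below. Less the length trend, PET112 was at a log2 fold change of 1.35 (edgeR adjusted p = 0.0144). EARS2, with a transcript of 5196 nt, was then at 0.15 (edgeR adjusted p = 0.575), so it no longer went the other way. With library size as the only scaling, log2 fold changes were 1.15 for PET112, 0.15 for GATC, 0.09 for QRSL1 and -0.67 for EARS2. Of 29 tested genes for mitochondrial tRNA processing and translation factors 3 rose and 1 fell, at a median log2 fold change of 0.41, where 5.06% of all genes rose and 4.13% fell. DESeq2 called 10 higher and 1 lower, where it called 13.2% of all genes higher and 10% lower. With the length trend removed edgeR called 7 higher and none lower, where 7.4% of all genes were higher and 6.66% lower. Besides PET112 the risers were KIAA0391, a subunit of mitochondrial RNase P, at 1.21 (SE 0.21), and the ribosome recycling factor MRRF at 1.06 (SE 0.24). The tRNA modification gene MTO1 fell by 0.86 (SE 0.19), and with the length trend removed it was at 0.10 (adjusted p = 0.843).

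Set beside each other amino acid by amino acid, most cytosolic genes stood lower relative to their mitochondrial counterpart in pos. For 19 pairs of a cytosolic and a mitochondrial gene for the same amino acid, the log2 ratio of cytosolic over mitochondrial CPM was lower in both pos libraries than in every neg library in 16 pairs and higher in none. EPRS, FARS2 and TARS2 each stand in 2 pairs, so the pairs are not independent. No such share was computed for pairs of other genes. Of single tested genes, 29.3% lay wholly below neg in pos and 26.7% wholly above. The median shift, pos minus neg, was -1.15 on the log2 scale. With 2 against 3 libraries there are 10 splits. The exact two-sided permutation test used here doubles the smaller tail, so it cannot give less than p = 0.200. All 16 pairs reached that value (0.238 after Benjamini-Hochberg adjustment over the 19).

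**Figure D3:**
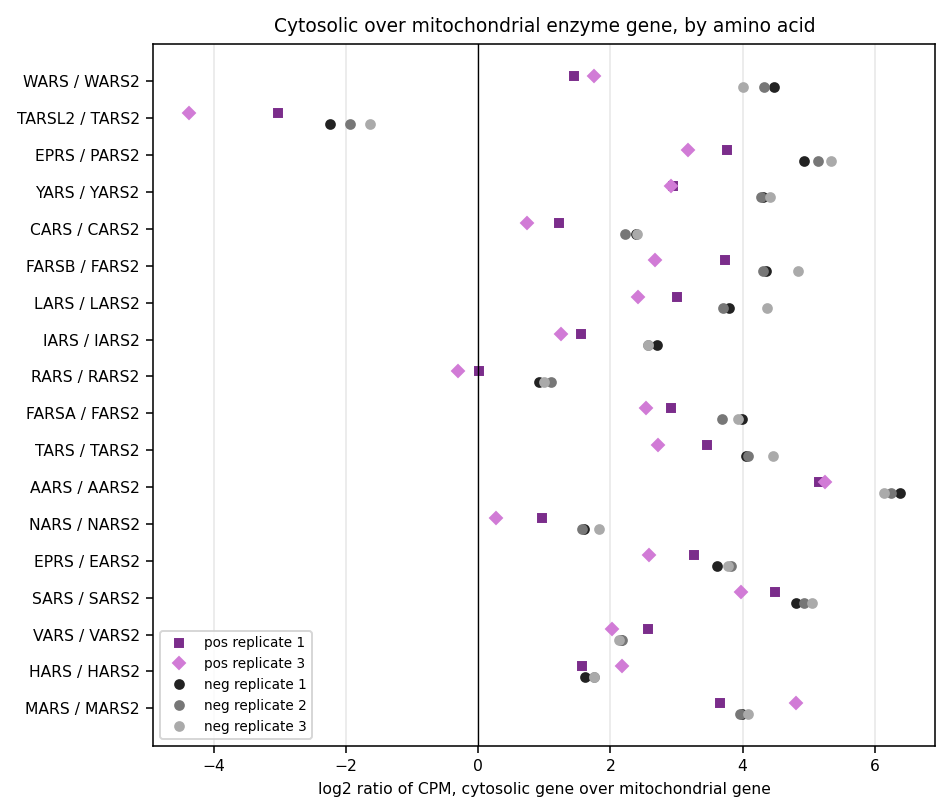
Log2 ratio of CPM of the cytosolic gene over the mitochondrial gene for the same amino acid, in each library, for 18 of the 19 pairs, ordered by the shift between pos and neg. In all rows but VARS / VARS2, HARS / HARS2 and MARS / MARS2 the pos squares and diamonds lie left of all neg circles.

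The tryptophan pair had the largest shift of the 19, at -2.66. Per kb of transcript, WARS exceeded WARS2 2.90-fold and 3.59-fold in pos, against 23.5-fold, 21.3-fold and 17.1-fold in neg. The tyrosine pair was the most even between pos libraries, with YARS 6.69-fold and 6.58-fold above YARS2 in pos, against 17.3-fold, 16.9-fold and 18.5-fold in neg. For alanine, AARS exceeded AARS2 50.4-fold and 53.1-fold in pos, against 117-fold, 107-fold and 99.5-fold in neg. For arginine, the log2 ratio of RARS over RARS2 CPM was 0.01 and -0.31 in pos, against 0.92, 1.11 and 0.99 in neg.

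The 3 pairs that overlapped were those for valine, histidine and methionine. VARS exceeded VARS2 5.17-fold and 3.54-fold in pos and 3.81-fold to 3.94-fold in neg. MARS exceeded MARS2 13.8-fold in pos replicate 1 and 30.7-fold in pos replicate 3, on either side of 16.9-fold to 18.4-fold in neg. The histidine pair shares the uncertainty over paralogs given above. With the length trend removed 15 of the 19 pairs still had both pos libraries below neg. The exception among the 16 was FARSB over FARS2, whose transcripts differ by 5082 nt. Its shift was -0.14 with the trend removed and -1.30 with it left in. VARS over VARS2 then lay wholly above neg, at a shift of 0.26.

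**Figure D4:**
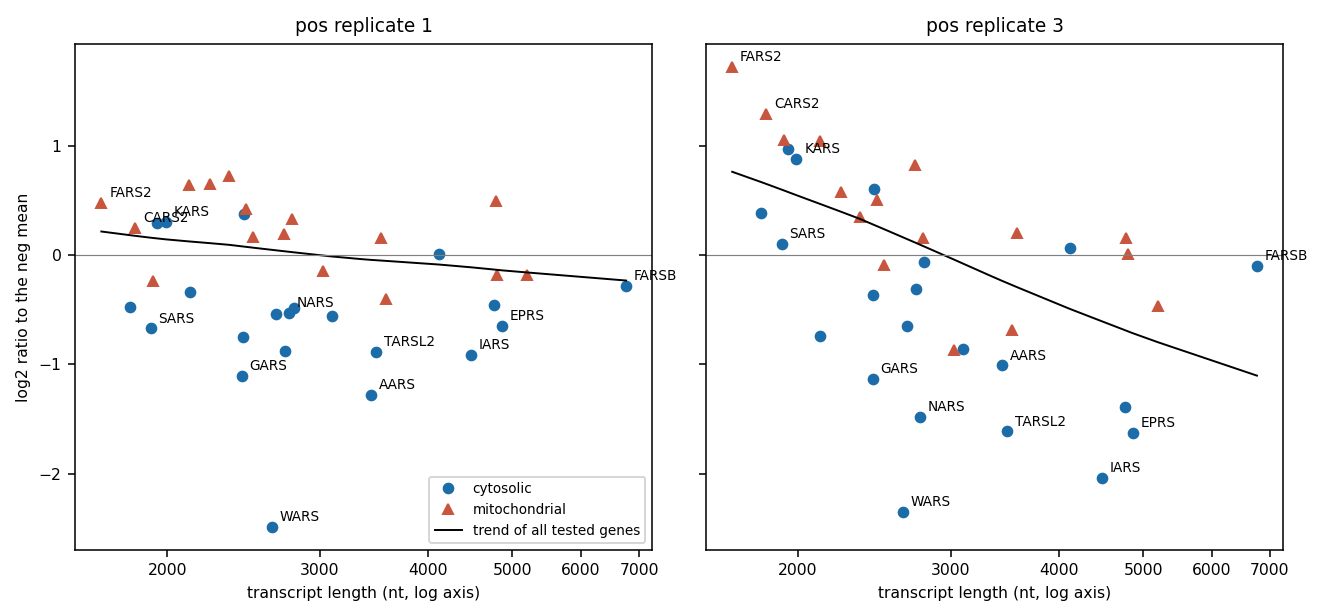
Log2 ratio of 37 of the 38 synthetase genes to their neg mean against transcript length (log axis), in pos replicate 1 on the left and pos replicate 3 on the right; circles are cytosolic and triangles mitochondrial genes, and the line is the trend of all tested genes with a length. In both panels most triangles lie above most circles of like length, and the slope is steeper in pos replicate 3.

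Transcript length moved with the values of pos replicate 3. Its log2 ratio to the neg mean was correlated with log2 length across the 17 mitochondrial genes at Pearson r = -0.74 (Spearman rho = -0.81) and across the 21 cytosolic genes at r = -0.45 (rho = -0.54). In pos replicate 1 the same values were -0.37 (rho = -0.38) and -0.10 (rho = -0.14). These are descriptions across genes of 1 library, which share its preparation and are no replicates. The median transcript length was 2737 nt for cytosolic and 2727 nt for mitochondrial genes. The median log2 ratio over cytosolic genes was -0.54 in pos replicate 1 and -0.65 in pos replicate 3, or -0.56 and -0.71 less the length trend, and over mitochondrial genes it was 0.25 and 0.20, or 0.20 and 0.33 less the trend. On the TMM scale the median of each class thus lay on its own side of 0 in either pos library, with or without the trend. With library size as the only scaling the fitted mitochondrial median was 0.04, with 8 of the 17 genes below 0.

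Removing the trend mattered most for single genes. SARS, with a short transcript of 1914 nt, passed with the trend removed (log2 fold change -0.65, adjusted p = 0.0358) and not without it (-0.23, adjusted p = 0.565). IARS moved to -1.08 (adjusted p = 0.0255) and EPRS to -0.70 (adjusted p = 0.0373), both smaller in size than with the trend left in but past the threshold in edgeR. FARSB, whose transcript of 6761 nt is the longest of the 38, changed sign to 0.56 (adjusted p = 0.222). KARS and HARS, with transcripts of 1991 and 1948 nt, went to 0.25 and 0.27, neither past the threshold.

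Overlapping genes can limit a count, since the strand setting of the authors' counting is not given. The canonical exons of MARS overlap those of DDIT3, an ATF4-induced gene on the other strand, by 60 nt. DDIT3 had 33.1 and 70.3 CPM in pos, against 101, 89.6 and 79.8 CPM in neg (edgeR adjusted p = 0.161, or 0.00536 less the length trend). WARS, GARS and AARS overlapped no other counted gene in canonical exons.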

How the data were processed

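Stranded mRNA libraries (TruSeq Stranded mRNA) of SW620 cells were aligned with STAR by the authors, per the labels' protocols, and the submitters' processing notes list CASAVA 1.8.2, STAR 2.5.2b and DESeq2 1.24.0. The authors deposited raw counts per gene symbol for 5 libraries. No source used here names the counting program, and the build is named both hg19 and GRCh38, so coordinates and lengths come from GENCODE 44 (GRCh38) by symbol or RefSeq synonym. All 38 synthetase genes and 97.5% of tested genes had a length. Of 25435 rows, 92 spike-in rows were left out.

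Counts were filtered (filterByExpr, minimum count 10, minimum total 15), scaled by TMM and fitted with edgeR 4.0.16 in R 4.3.3 (glmQLFit, glmQLFTest, pos against neg, two-sided, Benjamini-Hochberg at 0.05). SE is the log2 fold change over the square root of F. Within-library log2 ratios used a prior count of 2. Alternatives were DESeq2 1.42.0, limma-voom (limma 3.58.1), other scalings and filters, the replicate number as a block, left-out libraries, stricter thresholds, and removal of each library's trend on transcript length (lowess, span 0.3). The edgeR fit was also run on simulated counts without a length trend, where it left most of the smaller changes uncalled. At these totals 3 counts equal 0.189 to 0.316 CPM, a limit that covers counting error only. The labels speak of triplicates without saying that the cultures were separate, so p-values measure only the spread between these samples, which may be technical. Within a group, libraries differed by more than sampling noise. The genes, lists and tests were chosen with earlier results of these data known. Every synthetase gene could be named, with at most 4 called genes by smallest p from each other list, and ATF4, MUC1 and markers whatever their values. QRSL1, GATC, AIMP1, AIMP2, EEF1E1, EIF2AK2, PPP1R15A and DDIT3 were named after their values were seen. A mitochondrial gene and a marker gene are counted but not reported singly here.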

Additional observations from a re-analysis of the deposited data

How the results depend on the processing

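The counts of calls, the class medians and the fold change of each synthetase gene were recomputed under each alternative, changing 1 choice at a time, except that length removal was also combined with leaving out a pos library. Over all genes, 1251 passed the threshold. The count was 3161 with DESeq2, 606 with library size only, 1913 with the length trend removed, 650 with glmTreat at 1.2-fold, 1 at an adjusted p of 0.01, 87 with the replicate block and, leaving out 1 library, between 0 and 8819 (7252 and 5007 without pos replicates 1 and 3 where length was also corrected). Of cytosolic genes 3 were lower; this was 10 with DESeq2, 10 with the length trend removed, 5 with library size only, 0 at an adjusted p of 0.01, 0 with the replicate block (WARS adjusted p = 0.0613) and between 0 and 14 with 1 library left out. Without pos replicate 1 it was 11 lower and 3 higher (14 and 5 with the length trend also removed), where 32.1% of all genes were lower and 30.9% higher (24% and 27.8%). Without pos replicate 3 it was 14 and none (16 and none), where 17% of all genes were lower and 14.4% higher (18.8% and 17%). Of mitochondrial genes none was called; 3 were higher with DESeq2, and leaving out 1 library gave between 0 and 7 higher and between 0 and 2 lower (7 higher without pos replicate 1 and 4 without pos replicate 3; 8 and 4 where length was also corrected).

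With 1 pos library left, its spread is taken to equal that among neg, so those calls concern a single pos library. The cytosolic median of -0.57 was -0.96 with library size only, -0.66 with the length trend removed, and from -0.60 to -0.56 with 1 library left out (-0.70 and -0.57 without pos replicates 1 and 3 where length was also corrected); the mitochondrial median of 0.35 was 0.039 with library size only, and between 0.21 (without pos replicate 3) and 0.42 with 1 library left out (0.33 and 0.19 without pos replicates 1 and 3 where length was also corrected). The other scalings, filters and limma-voom gave 3 cytosolic and 0 mitochondrial calls, and glmTreat gave 2 and 0. Over 17 fits, 17 of 21 cytosolic and 8 of 17 mitochondrial genes kept their sign. Calls of the opposite sign to the fit on all libraries, where none of these genes was called, appeared with the length trend removed and 1 pos library left out: without pos replicate 1 AARS2 was at 0.72, FARSB at 1.01 and VARS2 at 0.50, and without pos replicate 3 FARSA was at -0.66. The cause was not tested. Deviations from the group means had correlations of -0.443 and -0.448 between same-numbered libraries of pos and neg. With 2 pos libraries both values rest on the same difference between them, so they cannot tell whether the numbers pair the libraries. Only 2 numbers are shared, and the main fit did not take the numbers to pair the libraries. Every mitochondrial gene had at least 81 reads in each library.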

Other observations

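Charged tRNAs are carried to the ribosome by elongation factors, and tRNAs leave the nucleus through an export receptor. Of 11 tested genes for tRNA export, elongation factors and proofreading, 1 rose and none fell (edgeR adjusted p under 0.05), where 5.06% of all genes rose and 4.13% fell. DESeq2 called 5 higher and 1 lower, where it called 13.2% of all genes higher and 10% lower. With the length trend removed edgeR called 2 higher, where 7.4% of all genes were higher. The riser was EEF1B2, which reloads the elongation factor that carries charged tRNAs, with 1427 and 2647 CPM in pos against 677, 546 and 513 CPM in neg (log2 fold change 1.82, SE 0.32, and 0.73 with the length trend removed). EEF1A1, the tRNA carrier itself, had 13105 and 14245.5 CPM in pos against 8555, 7572 and 6806 CPM in neg (edgeR adjusted p = 0.0808, or log2 fold change 1.01 and adjusted p = 0.0182 less the length trend). XPOT, which exports tRNAs from the nucleus and is a known ATF4 target, had 210.5 and 75.5 CPM in pos against 305, 336 and 359 CPM in neg (log2 fold change -1.22, SE 0.44, edgeR adjusted p = 0.112). EEF1A1 and XPOT were named after their values were seen.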
